A study of Mus musculus with 6 samples.

Results

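The genes described here are 36 genes of motile cilia, the beating cell projections of the airway. They were taken by name from the 56262 genes of the count table: transcription factors of ciliated cells, axonemal dynein heavy chains, parts of the nexin-dynein link, radial spokes and central pair, tektins, and other genes of ciliated cells. All 36 were found, and all 36 had enough counts to be tested, among 17120 tested genes. The rule takes genes by name and function and uses no measured value, though it was set with earlier results of these data known.

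Lung RNA of 3 R/R mice and 3 WT littermates was sequenced, all 6 from untreated mice of 8 weeks. R/R mice carry 2 substitutions of lysine by arginine in the RNA-binding protein RBM47, K329R and K332R, on both alleles. They were put into the C57BL/6 background by CRISPR/Cas engineering to remove the 2 sites at which the ubiquitin-like protein ISG15 is joined to mouse RBM47. No other allele or agent was named for either genotype, and the substitutions were present in all cells rather than in airway epithelium alone. The comparison of R/R with WT asks what loss of this modification does to the RNA of the resting lung.

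Motile cilia are built on an axoneme, a ring of microtubule doublets around a central pair of microtubules. Dynein arms on the doublets pull on the neighbouring doublet, radial spokes and the central pair set the rhythm, and the nexin-dynein link holds the doublets together, so that the cilium bends rather than telescopes. In the mouse lung these cilia stand on multiciliated cells of the airways, next to club cells, and move mucus towards the throat. FOXJ1 and the RFX factors switch on the genes of the axoneme, and inherited loss of many of these genes causes primary ciliary dyskinesia.

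RFX proteins bind boxes built from the motif GTTGCC, and FOXJ1 binds the forkhead motif GTAAACA. Both were searched for on both strands in RefSeq promoters (build GRCm38.p6), each running from 250 bases before the annotated start of a gene to 50 bases after it. Of the 36 genes, 29 had a promoter in the table. The RFX motif stood in the promoters of 16 of these 29 genes, or 55.17%, against 14.14% of all 27025 genes with a promoter and 14.98% of the 12018 tested genes with one. The forkhead motif stood in 2 of 29, or 6.9%, against 4.05% of all genes. A fuller box, GTTNCC followed after 0 to 3 bases by GGNAAC, was found in 0 of 29 and in 0.94% of all genes. Only this exact spelling was counted. Near matches, such as gttgctgtGGCAAC in Hydin and gttgctatGGCAAC in Cfap44, miss it by the last base of the first arm. The count of 0 thus does not show that paired arms are absent from these promoters. The GTTGCC motif overlaps the first arm of this box. A match is a description of letters and not a mapped binding site.

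The stretches below show the RFX motif in its setting, as it is the feature that most of these promoters share and that the choice of genes did not use. Each is written 5′ to 3′ on the gene's own strand, with 1 motif in capitals; GGCAAC is the same motif read on the opposite strand. The stretches of Spag16 and Tekt1 each hold another motif, left in lower case. Rfx2 is itself an RFX factor, Dnah10 and Dnah7a code for inner arm dyneins, Hydin and Spag16 for central pair proteins, Drc1 for the nexin-dynein link, Tekt1 for a tektin, Cfap44 for an axonemal protein near the inner arms, and Sntn for a protein of the ciliary tip.
Rfx2 (chr17:56831092-56831151, - strand): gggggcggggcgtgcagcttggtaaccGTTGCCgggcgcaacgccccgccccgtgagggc
Dnah10 (chr5:124725038-124725097, + strand): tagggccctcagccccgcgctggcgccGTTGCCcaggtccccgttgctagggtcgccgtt
Dnah7a (chr1:53706952-53707011, - strand): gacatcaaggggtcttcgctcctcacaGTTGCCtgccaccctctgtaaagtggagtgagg
Hydin (chr8:110266937-110266996, + strand): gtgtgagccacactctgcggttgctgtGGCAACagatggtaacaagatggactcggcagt
Spag16 (chr1:69826832-69826891, + strand): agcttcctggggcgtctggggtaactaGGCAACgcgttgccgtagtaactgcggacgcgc
Drc1 (chr5:30281355-30281414, + strand): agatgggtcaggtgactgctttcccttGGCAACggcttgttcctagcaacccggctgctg
Tekt1 (chr11:72361865-72361924, - strand): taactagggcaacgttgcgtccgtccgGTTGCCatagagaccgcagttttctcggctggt
Cfap44 (chr16:44394753-44394812, + strand): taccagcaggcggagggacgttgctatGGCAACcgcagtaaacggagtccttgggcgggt
Sntn (chr14:13670783-13670842, + strand): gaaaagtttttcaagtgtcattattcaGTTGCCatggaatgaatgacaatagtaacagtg

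Only Sntn and Cfap43 held the forkhead motif, and these stretches are shown because Sntn is the single gene with both motifs.
Sntn (chr14:13670626-13670673, + strand): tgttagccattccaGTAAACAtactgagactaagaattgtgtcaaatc
Cfap43 (chr19:47837383-47837443, - strand): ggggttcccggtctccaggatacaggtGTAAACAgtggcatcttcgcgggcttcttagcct

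**Figure D1:**
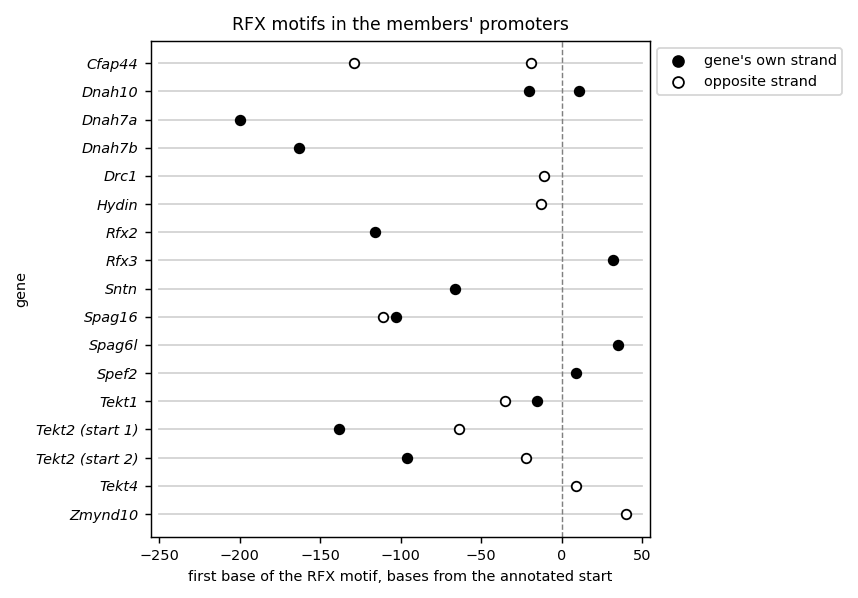
Position of each RFX motif (first base, in bases from the annotated start, x axis) in the promoters of the 16 genes that hold it (y axis), with filled points for the gene's own strand and open points for the opposite strand. Cfap44, Dnah10, Spag16, Tekt1 and Tekt2 each hold 2 motifs; Tekt2 has 3 annotated starts and is drawn for the 2 whose promoters hold the motif.

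The motif is also common in promoters of other cilium genes. It stood in 27 of 57 promoters (47.37%) of a wider list of motile cilia genes and in 10 of 23 promoters (43.48%) of genes of the primary cilium, the immotile sensory cilium of most cells. The fuller box, absent in its exact spelling from the 29, stood in 4 of these 57 (7.02%) and 2 of these 23 (8.7%), against 0.94% of all genes. In the other lists used below, the RFX motif stood in 0 of 8 promoters of club cell genes, 0 of 5 of basal and 0 of 6 of neuroendocrine genes. It stood in 1 of 4 of goblet, 1 of 5 of tuft, 1 of 7 of alveolar type 2 and 2 of 9 of alveolar type 1 genes. The counts were 1 of 3 for mesothelial, 1 of 5 for smooth muscle and 0 of 8 for sperm tail genes. These lists are small. Tekt1, Tekt2 and Tekt4 all held the RFX motif, as did Rfx2 and Rfx3, the RFX factors among the 36 genes. The 3 outer arm dynein heavy chains and the radial spoke gene Rsph9 have promoters in the table without it. Foxj1, Tppp3, Rsph1, Rsph4a, Dnah3, Cfap54 and Rp1 had no entry.

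Library totals ran from 16501092 to 18141067 counts. Values are given as CPM, counts scaled by TMM to a library of 1000000, so that 1 count is worth 0.0552 to 0.0607 CPM. The tissue label matched its markers: Sftpc, a surfactant protein of alveolar type 2 cells, lay between 10010.4 and 13789.7 CPM, and Scgb1a1, the main secreted protein of club cells, between 8901 and 14489.9 CPM. Rbm47 itself lay between 28.8 and 34.4 CPM, with a log2 fold change of 0.099 ± 0.082 (SE, edgeR adjusted p = 0.66); counts per gene do not show the substitutions. WT lung 3 stood apart in Muc5b and Scgb3a1, which were named after their values were seen, but not in Scgb1a1. Muc5b, the main gel-forming mucin of the resting airway, measured 23.5 CPM there and 0.555 to 4.06 CPM in the other 5 lungs, and Scgb3a1, a secretoglobin of the larger airways, 33.3 CPM against 1.37 to 5.16 CPM. For the 36 genes and the lists of other genes, counts and medians without this lung are given below where they moved.

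None of the 36 motile cilia genes passed the test between R/R and WT lungs, and for each of them the values of the genotypes overlapped. The test was edgeR's quasi-likelihood test with Benjamini-Hochberg adjustment over all 17120 tested genes, and a gene was called at an adjusted p of 0.05. By this rule 0 of the 36 genes were called, while 1.75% of all tested genes were called, 0.648% as higher and 1.1% as lower in R/R. At an unadjusted p of 0.05 the count was also 0 of 36, against 14.2% of all tested genes. DESeq2 and limma-voom called 0 of 36 as well, with 0 below an unadjusted p of 0.05. Values that did not overlap between the genotypes were found for 18.7% of all tested genes (9.17% with all R/R above all WT lungs, 9.5% with all R/R below) and for 0 of these 36. The 36 genes varied together from lung to lung, as described below, so these counts are not those of 36 independent genes.

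The fitted changes leaned one way but were small. Of the 36 genes, 32 had a log2 fold change above 0 and 4 below it, with a median of 0.11, where 8769 of 17120 tested genes were above 0, with a median of 0.0045. The standard errors ran from 0.096 to 0.26 on the log2 scale. All 36 of the 95% intervals held 0. In 24 genes the interval lay within a change of 1.5-fold in either direction, and in 35 it lay within a change of 2-fold, Sntn being the exception. The count of 32 depended on single lungs: it was 19 without WT lung 1, 22 without WT lung 2, 34 without WT lung 3, 36 without R/R lung 1, 25 without R/R lung 2 and 24 without R/R lung 3. The median rose to 0.31 without WT lung 3 and to 0.27 without R/R lung 1, and fell to 0.035 without WT lung 1, 0.062 without WT lung 2, 0.065 without R/R lung 2 and 0.058 without R/R lung 3. No gene was called in any of these 6 fits, though 15 genes had an unadjusted p below 0.05 without WT lung 3 and 7 without R/R lung 1. Without WT lung 3 the lowest adjusted p by edgeR was that of Dnah1, 0.0723, at a log2 fold change of 0.79. Other examples, not in order of p, were Sntn with 0.73 (adjusted p = 0.157), Zmynd10 0.50 (0.142), Dnah3 0.44 (0.1655), Hydin 0.41 (0.176) and Rsph1 0.42 (0.237). In whole lung, a different number of ciliated cells and a different amount of RNA per ciliated cell cannot be told apart.

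**Figure D2:**
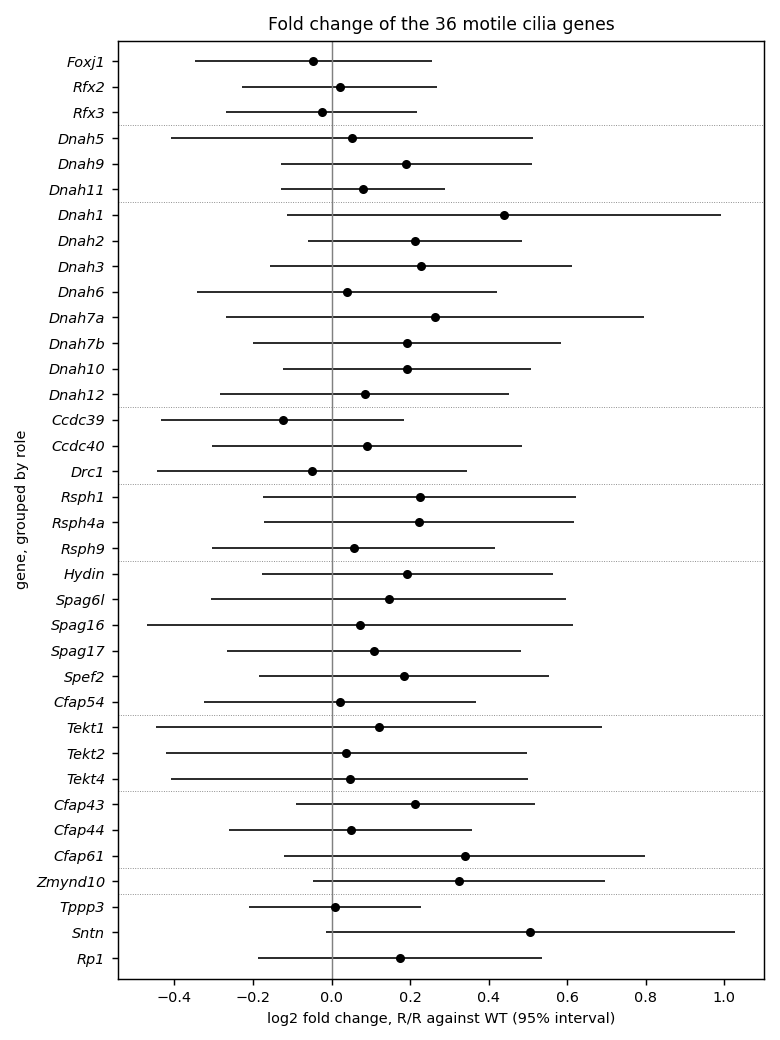
Log2 fold change of each of the 36 motile cilia genes, R/R against WT (x axis), with points for the fitted value and bars for the 95% interval from edgeR, 3 lungs a genotype; dotted lines part the roles. All 36 bars cross 0, and 32 of the 36 points lie above it.

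The transcription factors were the role with the least change. Foxj1 (chr11:116330704-116335399, minus strand, build GRCm38 here and below), the forkhead factor required for motile cilia, measured 42.8, 58.9 and 56.3 CPM in R/R lungs 1 to 3 and 48.04, 48.3 and 66.7 CPM in WT lungs 1 to 3. Its highest and its lowest value were thus both set by single lungs, WT lung 3 and R/R lung 1, with the other 4 between 48.04 and 58.9 CPM. The log2 fold change of Foxj1 was -0.047 ± 0.14 (SE, adjusted p = 0.927), with a 95% interval of 0.786 to 1.19 for the ratio of R/R to WT. Rfx2 measured 19.1, 20.03 and 21.03 CPM in the R/R lungs and 17.2, 18.7 and 23.3 CPM in the WT lungs, a log2 fold change of 0.021 ± 0.11 (SE, adjusted p = 0.962). Rfx3, which acts in primary as well as motile cilia, measured 16.7, 22.8 and 20.3 CPM in the R/R lungs and 20.5, 20.6 and 19.7 CPM in the WT lungs, a log2 fold change of -0.025 ± 0.11 (SE, adjusted p = 0.955). For both RFX factors the R/R lungs lay within or around the range of the WT lungs, and Rfx3 did not share the high value of WT lung 3.

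Outer arm dyneins supply most of the force of the ciliary beat. Dnah5, their heavy chain along the whole cilium, measured 24.4, 39.99 and 40.1 CPM in R/R lungs 1 to 3 and 29.9, 25.4 and 45.4 CPM in WT lungs 1 to 3. R/R lungs 2 and 3 and WT lung 3 were high and the other 3 low, so that the log2 fold change was 0.052 ± 0.21 (SE, adjusted p = 0.950). Dnah9, the chain of the outer part of the cilium, measured 20.1, 27.7 and 24.5 CPM in the R/R lungs and 20.7, 17.2 and 25.6 CPM in the WT lungs (0.19 ± 0.15, SE, adjusted p = 0.628). Dnah11, its counterpart nearer the base, measured 19.1, 22.5 and 23.7 CPM in the R/R lungs and 20.4, 20.3 and 21.1 CPM in the WT lungs (0.080 ± 0.10, SE, adjusted p = 0.780). Its SE of 0.096 was the smallest among the 36 genes, and the 95% interval for its ratio was 0.914 to 1.22.

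Inner arm dyneins shape the bend of the cilium, and all 8 of their heavy chains were fitted above 0, with a median log2 fold change of 0.20. Dnah1 (chr14:31260375-31323896, minus strand) had the highest value of them, 0.44 ± 0.25 (SE, adjusted p = 0.482). It measured 8.32, 10.9 and 14.8 CPM in R/R lungs 1 to 3 and 6.68, 6.40 and 12.00 CPM in WT lungs 1 to 3. WT lung 3 lay above R/R lungs 1 and 2 for this gene, while WT lungs 1 and 2 lay below all R/R lungs. Without WT lung 3 its log2 fold change was 0.79, with an adjusted p of 0.0723, the lowest of any of the 36 genes in the fits that left out a lung. Dnah2 measured 15.9, 18.8 and 21.1 CPM in the R/R lungs and 15.7, 14.3 and 18.1 CPM in the WT lungs (0.21 ± 0.12, SE, adjusted p = 0.494). Dnah3 measured 19.5, 23.6 and 30.2 CPM in the R/R lungs and 18.6, 17.2 and 26.6 CPM in the WT lungs (0.23 ± 0.18, SE, adjusted p = 0.628). In both genes WT lung 3 again fell among the R/R lungs. Dnah3 shares 10.53% of its exonic bases with Lyrm1 on the opposite strand, and counting used no strand, so part of its count can come from Lyrm1.

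Dnah6, the inner arm chain with the most counts, measured 32.9, 45.7 and 55.5 CPM in the R/R lungs and 38.8, 37.3 and 54.3 CPM in the WT lungs, and R/R lung 1 was the lowest of all 6. Dnah10, a chain of the inner arm that carries a pair of motors, measured 20.9, 28.5 and 30.9 CPM in the R/R lungs and 20.7, 21.9 and 27.6 CPM in the WT lungs, and R/R lung 1 lay between WT lungs 1 and 2. Dnah12 measured 20.2, 22.8 and 30.5 CPM in the R/R lungs and 17.98, 23.02 and 28.2 CPM in the WT lungs. The log2 fold changes of Dnah6, Dnah10 and Dnah12 were 0.040, 0.19 and 0.084. Dnah7a and Dnah7b are near-identical copies with a further copy, Dnah7c, and 20.12% and 23.41% of the 100-base windows of their transcripts also occur in another gene; pairs with more than 1 place to map were left out of the counts, so their levels are uncertain. Dnah7a lay between 3.17 and 6.01 CPM and Dnah7b between 5.53 and 7.83 CPM.

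**Figure D3:**
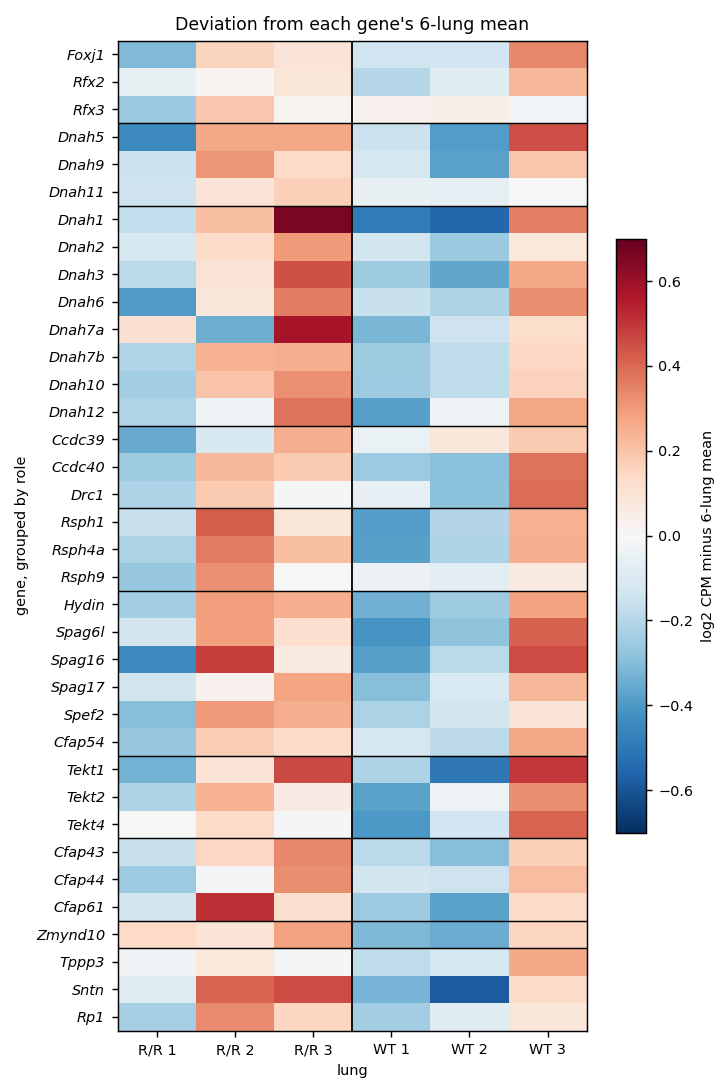
Deviation of log2 CPM from the mean of the 6 lungs (colour, red above and blue below) for each of the 36 genes (rows, grouped by role) in each lung (columns). The columns of R/R lung 1, WT lung 1 and WT lung 2 are mostly blue and those of R/R lung 2, R/R lung 3 and WT lung 3 mostly red, on both sides of the line between the genotypes.

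The ruler proteins and the nexin-dynein link fix the spacing of spokes and arms along the doublet. Ccdc39, a molecular ruler, had the lowest log2 fold change of the 36 genes, -0.12 ± 0.14 (SE, adjusted p = 0.766). It measured 12.7, 15.1 and 19.4 CPM in R/R lungs 1 to 3 and 15.7, 17.2 and 18.4 CPM in WT lungs 1 to 3. R/R lungs 1 and 2 were the lowest and R/R lung 3 the highest of the 6. Ccdc39 shares 16.87% of its exonic bases with Ttc14 on the opposite strand, so its count has the same limit as that of Dnah3. Ccdc40, its ruler partner, measured 13.7, 19.01 and 18.4 CPM in the R/R lungs and 13.6, 13.2 and 21.1 CPM in the WT lungs (0.090 ± 0.18, SE, adjusted p = 0.883). Drc1, a subunit of the link, measured 7.83, 10.3 and 9.01 CPM in the R/R lungs and 8.75, 7.45 and 11.9 CPM in the WT lungs (-0.050 ± 0.18, SE, adjusted p = 0.940). For Ccdc40 and Drc1 WT lung 3 was the highest lung of all.

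Radial spokes carry signals from the central pair to the dynein arms. The 3 spoke genes were fitted above 0, and none passed the test. Rsph1 measured 10.4, 15.5 and 12.3 CPM in R/R lungs 1 to 3 and 8.87, 10.04 and 13.8 CPM in WT lungs 1 to 3 (0.22 ± 0.18, SE, adjusted p = 0.650). Rsph4a, a spoke head protein, measured 10.99, 16.4 and 14.8 CPM in the R/R lungs and 9.84, 11.04 and 15.3 CPM in the WT lungs (0.22 ± 0.18, SE, adjusted p = 0.648). In both, R/R lung 2 was the highest lung and WT lung 1 the lowest. Rsph9, also of the spoke head, measured 6.38, 9.62 and 7.72 CPM in the R/R lungs and 7.47, 7.29 and 8.02 CPM in the WT lungs (0.057 ± 0.16, SE, adjusted p = 0.926), and R/R lung 1 was the lowest.

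The central pair is the hub that the spokes touch. Hydin (chr8:110266977-110610253, plus strand), a very large protein of the central pair, measured 19.2, 27.8 and 27.1 CPM in R/R lungs 1 to 3 and 17.98, 19.2 and 27.6 CPM in WT lungs 1 to 3 (0.19 ± 0.17, SE, adjusted p = 0.680). Its values formed 2 levels, 17.98 to 19.2 CPM in 3 lungs and 27.1 to 27.8 CPM in the other 3, and each level held lungs of both genotypes. Spag16 measured 6.33, 12.1 and 9.01 CPM in the R/R lungs and 6.62, 7.56 and 11.8 CPM in the WT lungs, with the largest SE among the central pair genes (0.072 ± 0.25, SE, adjusted p = 0.937). Spag6l measured 7.99, 10.6 and 9.48 CPM in the R/R lungs and 6.56, 7.17 and 11.7 CPM in the WT lungs (0.15 ± 0.21, SE, adjusted p = 0.820), and WT lungs 3 and 1 were its highest and lowest. Spag17, Spef2 and Cfap54, the other 3, lay between 6.32 and 13.3 CPM in all lungs, with log2 fold changes of 0.11, 0.19 and 0.021. Spag17 overlaps Wdr3 and an antisense gene over 15.74% of its exonic bases, so its count may hold reads of those genes.

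Tektins are filaments inside the doublets. Tekt1 measured 5.33, 7.17 and 9.25 CPM in R/R lungs 1 to 3 and 5.77, 4.75 and 9.48 CPM in WT lungs 1 to 3, and its highest value was in WT lung 3 and its lowest in WT lung 2. Its log2 fold change was 0.12 ± 0.26 (SE, adjusted p = 0.894), the largest SE of the 36 genes. Tekt2 and Tekt4 lay between 3.89 and 7.14 CPM, and Tekt2 overlaps another gene over 20.84% of its exonic bases; their log2 fold changes were 0.037 and 0.046. Among the CFAP genes, Cfap43 measured 21.8, 26.9 and 30.7 CPM in the R/R lungs and 21.4, 19.8 and 27.3 CPM in the WT lungs (0.21 ± 0.14, SE, adjusted p = 0.545). Cfap44, its partner at the tether between the inner arms and the doublet, measured 22.7, 26.96 and 33.99 CPM in the R/R lungs and 24.8, 24.5 and 31.5 CPM in the WT lungs (0.048 ± 0.14, SE, adjusted p = 0.926). Cfap61, a radial spoke protein, measured 4.77, 7.47 and 5.65 CPM in the R/R lungs and 4.37, 4.03 and 5.74 CPM in the WT lungs (0.34 ± 0.21, SE, adjusted p = 0.524). WT lung 3 lay above R/R lung 1 in these 3 genes.

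Sntn and Zmynd10 came closest to the threshold. Sntn (chr14:13670876-13683148, plus strand), which codes for sentan of the ciliary tip, measured 3.50, 4.96 and 5.12 CPM in R/R lungs 1 to 3 and 2.98, 2.48 and 4.10 CPM in WT lungs 1 to 3. WT lung 3 lay above R/R lung 1, and otherwise all R/R lungs lay above the WT lungs. The mean was 4.53 ± 0.897 CPM in R/R and 3.19 ± 0.827 CPM in WT (SD, n = 3). The log2 fold change was 0.51 ± 0.24 (SE, unadjusted p = 0.0561, adjusted p = 0.367 by edgeR), a ratio of 1.42 with a 95% interval of 0.989 to 2.04. Exact permutation of the lungs, two-sided, gave p = 0.2 for Sntn, where 3 against 3 cannot go below 0.1. Zmynd10, which is needed to assemble dynein arms in the cytoplasm, measured 7.44, 7.17 and 8.19 CPM in the R/R lungs and 5.41, 5.30 and 7.49 CPM in the WT lungs, a log2 fold change of 0.33 ± 0.17 (SE, adjusted p = 0.428). WT lung 3 lay within the R/R range for Zmynd10, which overlaps an opposite-strand gene over 10.05% of its exonic bases.

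Tppp3 (chr8:105467493-105471526, minus strand), a tubulin-binding protein abundant in ciliated cells, was far above the others. It measured 296, 317 and 298 CPM in R/R lungs 1 to 3 and 266, 277 and 363 CPM in WT lungs 1 to 3, a mean of 304 ± 11.7 CPM in R/R and 302 ± 52.9 CPM in WT (SD, n = 3). WT lung 3 was the highest and WT lungs 1 and 2 the lowest, with the R/R lungs between, and the log2 fold change was 0.0086 ± 0.10 (SE, adjusted p = 0.982). Rp1, a microtubule protein named for its part in the photoreceptor cilium, lay between 7.17 and 10.7 CPM (0.17 ± 0.17, SE, adjusted p = 0.708).

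Per kb of exonic length, levels of the 36 genes spanned from 0.323 to 164 CPM per kb as means of 6 lungs. Tppp3 came first, followed by Foxj1 at 20.4 and Rsph1 at 8.61 CPM per kb. Over the 6 lungs the ranges of these 3 did not overlap with each other or with that of Rsph9, next in order at 4.84 CPM per kb. From Rsph9 down to Dnah7a, each gene's range overlapped with that of the next in the order, so neighbours there did not differ beyond the spread between lungs. Among dynein heavy chains, Dnah6 was the highest at 3.33 CPM per kb, ahead of Dnah5 at 2.19 CPM per kb. Tppp3 is also made by cells other than ciliated cells, such as connective tissue cells, and its share of the level was not measured here.

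**Figure D4:**
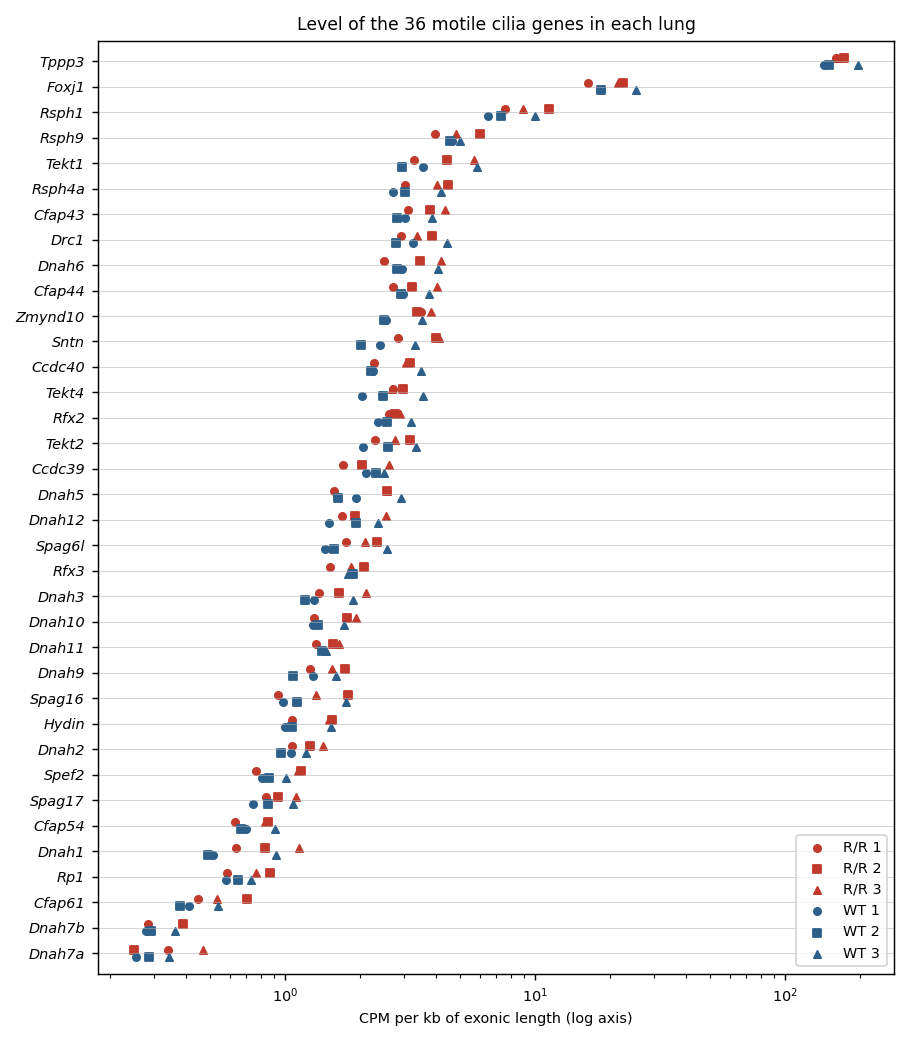
Level of each of the 36 genes in CPM per kb of exonic length (x axis, log scale) in each of the 6 lungs, red for R/R and blue for WT, with the genes ordered by their mean. Tppp3, Foxj1 and Rsph1 stand clear of the rest, and red and blue points overlap in every row.

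The motile cilia genes varied together from lung to lung rather than with genotype. For each gene the mean of log2 CPM over the 6 lungs was taken away, and the median of what remained over the 36 genes was -0.22, 0.19 and 0.23 in R/R lungs 1 to 3 and -0.25, -0.18 and 0.24 in WT lungs 1 to 3. These medians averaged 0.068 ± 0.25 in R/R and -0.064 ± 0.26 in WT (SD, n = 3), so that the lungs of 1 genotype differed more from each other than the genotypes did. R/R lung 1 was the lowest R/R lung for 33 of the 36 genes, or 91.7%, against 32.2% of all tested genes. WT lung 3 was the highest WT lung for 35 of 36, or 97.2%, against 35.7% of all tested genes, Rfx3 being the exception. The summed level of the 36 genes was 767, 942 and 954 CPM in R/R lungs 1 to 3 and 749.7, 761 and 1023 CPM in WT lungs 1 to 3.

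The spread within a genotype was wide for these genes. The coefficient of variation had a median of 19.3% over the 36 genes in R/R lungs and 19.8% in WT lungs. Over the 12382 tested genes with a mean CPM in the same range as theirs, the medians were 6.82% and 6.499%. The correlation of each gene's log2 CPM with the median of the other 35 genes over the 6 lungs had a median of 0.88 and exceeded 0.8 for 28 of the 36. It was highest for Hydin, at 0.99, and lowest for Dnah7a and Rfx3, both at 0.41. Of 15669 other tested genes with a mean of at least 1 CPM, 3.89% exceeded 0.8 with the median of the 36. High correlations were not limited to the 36 genes. In the wider list of motile cilia genes 35 of 69 tested genes exceeded 0.8, and among club cell genes 6 of 12 did. Among primary cilium genes 3 of 26 exceeded it, and among alveolar type 2 genes 0 of 10. These correlations rest on 6 lungs, and all genes share the libraries.

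The 10 genes outside the 36 whose pattern was most like that median, again over 6 lungs, were Igsf11, Drc3, Cfap70, Tmem54, 1700016K19Rik, Tmem56, Rab36, Iqcd, Rnf19b and Mien1, with correlations from 0.98 to 0.99. These genes were picked as the highest of 15669 by this correlation, so the high values follow from the choice. Drc3 (listed here under its older symbol Lrrc48), Cfap70 and Iqcd belong to the wider list of motile cilia genes. The others of the 10 are in none of the lists used here. Igsf11, an adhesion protein, led with 0.888, 1.67 and 1.83 CPM in the R/R lungs and 0.911, 1.05 and 1.76 CPM in the WT lungs. Its values parted the lungs as those of Hydin did, with lungs of both genotypes on each side.

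The wider list held 75 further motile cilia genes, of which 74 could be matched to the table and 69 were tested. None was called by edgeR, 0 had an unadjusted p below 0.05, and 47 of 69 were fitted above 0, with a median log2 fold change of 0.061. DESeq2 and limma-voom called 0 as well, with 0 and 1 below an unadjusted p of 0.05. The direction of this median depended on single lungs: it was -0.023 without R/R lung 3, -0.025 without WT lung 2, 0.0078 without WT lung 1, 0.028 without R/R lung 2, 0.17 without R/R lung 1 and 0.23 without WT lung 3. Pih1d3, a dynein assembly factor, had 0 counts in all 6 libraries, which allows up to 0.182 CPM by counting error alone.

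In each role the members of the wider list with the highest level per kb were as follows. Dynlrb2, a dynein light chain of cilia, measured 10.05, 12.5 and 12.3 CPM in the R/R lungs and 11.2, 8.55 and 13.5 CPM in the WT lungs, and Dnal4, an outer arm light chain, lay between 28.2 and 34.2 CPM. Ccdc114 and Ccdc151, which dock the outer arm, lay between 2.71 and 10.6 CPM. Dnaaf5 and Cfap298, of dynein assembly, had log2 fold changes of -0.11 ± 0.083 and 0.16 ± 0.13 (SE). Gas8, a core subunit of the nexin-dynein link, measured 17.3, 20.7 and 20.03 CPM in the R/R lungs and 19.7, 19.6 and 21.4 CPM in the WT lungs, and its R/R and WT lungs covered much the same range. Drc3, of the same link, had a log2 fold change of 0.26 ± 0.20 (SE, adjusted p = 0.635). Nme5 and Rsph3b of the spokes, Ak7 and Cfap65 of the central pair, and Fam183b and Cfap126 of the doublet lumen had log2 fold changes from 0.054 (Ak7) to 0.35 (Fam183b), with adjusted p from 0.540 to 0.932. Dynlrb2 and Gas8 were highest in WT lung 3, as were 36 of the 69 tested genes of the wider list and 14.2% of all tested genes. Among the 36 genes, R/R lung 3 was the highest lung for 15, WT lung 3 for 11 and R/R lung 2 for 10.

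The regulators that start multiciliogenesis pointed the other way from the axonemal genes, without passing the test. Of 8 regulators 7 were tested, 6 of them were fitted below 0, the median log2 fold change was -0.39, and 0 were called by edgeR, DESeq2 or limma-voom, with 0 below an unadjusted p of 0.05 in each. Ccno, which drives the making of basal bodies, measured 3.11, 2.27 and 3.12 CPM in R/R lungs 1 to 3 and 2.73, 3.37 and 5.03 CPM in WT lungs 1 to 3 (-0.39 ± 0.26, SE, adjusted p = 0.561). Myb, a factor of early ciliated cells and of blood progenitors, measured 10.3, 10.5 and 12.4 CPM in the R/R lungs and 10.7, 10.9 and 12.5 CPM in the WT lungs (-0.043 ± 0.13, SE, adjusted p = 0.927). Mcidas, Deup1 and Foxn4, named after their values were seen, had log2 fold changes of -0.45 ± 0.38, -0.39 ± 0.24 and -0.56 ± 0.39 (SE), and lay between 0.418 and 3.98 CPM. WT lung 3 was the highest lung for Ccno, Mcidas and Deup1, and without it the median over the 7 tested regulators was -0.11. The difference between regulators and axonemal genes was not tested.

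Genes of the primary cilium and of transport within cilia, which nearly all cell types express, did not follow the 36 genes closely. All 26 were tested, 0 were called by edgeR, DESeq2 or limma-voom, 0 had an unadjusted p below 0.05 in each, and 17 were fitted above 0, with a median log2 fold change of 0.059. Their median deviation ran from -0.077 in WT lung 1 to 0.083 in R/R lung 2, against -0.25 to 0.24 for the 36 genes. Ift20, the highest of them per kb, measured 45.6, 52.1 and 48.2 CPM in the R/R lungs and 44.9, 46.9 and 47.5 CPM in the WT lungs (0.067 ± 0.070, SE, adjusted p = 0.740). In the list of sperm tail genes, 3 of 10 were tested and 0 were called by edgeR, DESeq2 or limma-voom, with 1 below an unadjusted p of 0.05 in each. Tekt5, the highest of these per kb, lay between 4.13 and 7.33 CPM, and Catsper1 and Tnp1, which define sperm and their precursors, were at 0 counts in all 6 libraries.

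Markers of club cells, the neighbours of ciliated cells in the airway, moved partly with the 36 genes. Their summed level over 12 genes was 14807, 19445 and 18961 CPM in R/R lungs 1 to 3 and 13165, 12323 and 17833 CPM in WT lungs 1 to 3. As for the motile cilia genes, the lowest R/R lung was lung 1 and the highest WT lung was lung 3. Scgb1a1 measured 10989.7, 14489.9 and 14008 CPM in the R/R lungs and 9659, 8901 and 13307 CPM in the WT lungs (0.31 ± 0.15, SE, adjusted p = 0.398). Of the 12 genes 9 were fitted above 0, 3 had an unadjusted p below 0.05 by edgeR and 1, Gsta3, was called. Over all tested genes 51.2% were fitted above 0, 14.2% had an unadjusted p below 0.05 and 1.75% were called. Gsta3, a glutathione transferase, rose from 67.4 ± 10.9 CPM in WT to 102 ± 19.5 CPM in R/R (SD, n = 3), a log2 fold change of 0.59 ± 0.13 (SE, adjusted p = 0.0491). It was no longer called by limma-voom, with 0 of 12 genes called, nor under a filter of 1 CPM in 3 libraries, nor without R/R lung 1 or 2 or WT lung 1 or 2, with adjusted p from 0.0544 to 0.198 in those fits. Without WT lung 3, by contrast, 4 of the 12 were called and 11 were fitted above 0, and the median log2 fold change was 0.40 against 0.17 with all lungs. The part of the amount of airway tissue in the values of the 36 genes was not tested.

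Other cell types of the airway were little represented. Goblet cell markers summed to 3.05 to 8.07 CPM in R/R lungs and to 5.41 to 37.4 CPM in WT lungs, the highest value being WT lung 3; 3 of 8 were tested, 0 were called by edgeR, DESeq2 or limma-voom, and 2, 0 and 0 had an unadjusted p below 0.05. Without WT lung 3 edgeR had 0 below it, and the median log2 fold change of these 3 was -0.35 against -2.34. Spdef, their highest gene per kb, lay between 1.09 and 2.11 CPM. Basal cell markers summed to 2.69 to 4.27 CPM in R/R and 3.77 to 4.45 CPM in WT lungs. For Krt5, which defines basal cells, 5 of the 6 libraries had 0 counts. Dapl1 was the highest basal gene per kb, at 0.364 to 0.937 CPM. Neuroendocrine markers summed to 5.62 to 8.89 and 5.08 to 6.73 CPM, with Syp the highest per kb at 3.40 to 4.95 CPM. Tuft cell markers summed to 18.1 to 20.5 and 14.9 to 16.6 CPM, with Ltc4s the highest per kb at 2.55 to 4.39 CPM. Of the basal, neuroendocrine and tuft lists, 3, 2 and 4 genes were tested and 0 were called by edgeR, DESeq2 or limma-voom, with 0, 0 and 1 below an unadjusted p of 0.05 in each.

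Markers of cells outside the airway lining differed in their pattern over the lungs. Alveolar type 2 markers summed to 30385 to 31941 CPM in R/R lungs and 23424 to 29734 CPM in WT lungs; 10 of 10 were fitted above 0, 0 were called by edgeR or limma-voom and 2 by DESeq2, and 5 had an unadjusted p below 0.05 in each. Sftpc measured 13496, 13789.7 and 12428 CPM in the R/R lungs and 10010.4, 11175 and 12159.5 CPM in the WT lungs (0.25 ± 0.10, SE, adjusted p = 0.271). Among alveolar type 1 markers, 1 of 10 was called, Aqp5, a water channel, at 322 ± 10.7 CPM in R/R and 267 ± 11.95 CPM in WT (SD, n = 3, adjusted p = 0.0459), while Ager, the highest per kb, had a log2 fold change of 0.021 ± 0.074 (SE). Among mesothelial markers, 6 of 7 were fitted above 0, with a median log2 fold change of 0.41, and 6 had an unadjusted p below 0.05 by edgeR. Of these 7 markers 1 was called, Lrrn4, with a log2 fold change of 1.01 ± 0.16 (SE, adjusted p = 0.0124). Krt19, the highest per kb, had 0.35 ± 0.088 (SE, adjusted p = 0.0794). Among smooth muscle markers, 1 of 8 was called, Hhip, an inhibitor of hedgehog signalling, with a log2 fold change of 0.41 ± 0.069 (SE, adjusted p = 0.0169), and Acta2, the highest per kb, had -0.20 ± 0.14 (SE). By edgeR 2 of 10 alveolar type 1 and 2 of 8 smooth muscle markers had an unadjusted p below 0.05, and 6 and 2 were fitted above 0. Over all tested genes 14.2% had an unadjusted p below 0.05, 51.2% were fitted above 0 and 1.75% were called. Gsta3, Aqp5, Lrrn4 and Hhip were all higher in R/R. The call of Aqp5 was lost in 5 of the 6 fits that left out a lung, all but that without WT lung 3, with adjusted p from 0.106 to 0.198. Lrrn4 lost it without R/R lung 2 (0.0699) and without WT lung 1 (0.0567), and Hhip without R/R lung 2 (0.0648), WT lung 1 (0.0653) or WT lung 2 (0.0551). Calls were also gained: without WT lung 3, 2 alveolar type 2 and 4 mesothelial genes were called, and 4 mesothelial genes without R/R lung 3. In alveolar type 2 and mesothelial markers R/R lung 1 was not the lowest R/R lung, unlike in the 36 genes. Smooth muscle markers had R/R lung 1 as the lowest R/R lung and WT lung 3 as the highest WT lung, as the 36 genes did, with summed levels of 532, 604 and 629 CPM in R/R lungs 1 to 3 and 612, 549 and 743 CPM in WT lungs 1 to 3. Their median log2 fold change was -0.19, and 0.0067 without WT lung 3.

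**Figure D5:**
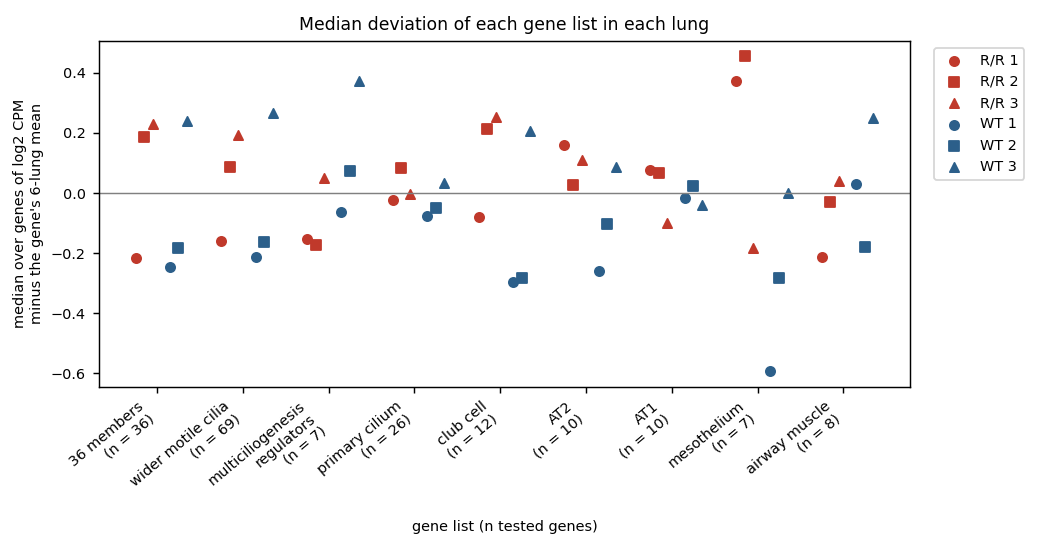
Median over the genes of a list of the deviation of log2 CPM from each gene's 6-lung mean (y axis), for the 36 genes and 8 other lists (x axis, with the number of tested genes), in each lung, red for R/R and blue for WT. In the 36 genes, the wider list and the primary cilium, club cell and smooth muscle lists, R/R lung 1 lies below the other R/R lungs and WT lung 3 above the other WT lungs.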

How the data were processed

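Paired reads of the 6 lungs were mapped to mm10 (GRCm38) by the authors using HISAT2 2.1.0. The counts they deposited are whole, unnormalized numbers per gene from featureCounts 2.0.1 with GENCODE M25, taken without regard to strand and leaving out pairs with several map positions. In the deposited table the last column was recorded here as an estimated count because a comment line was misread, but its values are whole counts and none was rounded. The sources differ on RNA extraction (Trizol or RNeasy). Groups came from the labels, which name no batch; the animals are separate mice. Symbols came from GENCODE M21 (55141 of 56262 identifiers matched). No per-sample column was left unused.

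Counts were filtered with filterByExpr (minimum count 10, total 15), scaled by TMM and compared with edgeR 4.0.16 in R 4.3.3 (glmQLFit, glmQLFTest; Benjamini-Hochberg adjusted p of 0.05; 3 lungs against 3, no covariate), and the code was tested on simulated data. SEs are the log2 fold change over the root of the F statistic. log2 CPM used a prior count of 0.5. Exonic length was the sum given in the table. Limits from 0 counts use 3 counts and cover counting error only. The genes and lists were chosen with earlier results of these data known. Named genes are all 36, the called genes of each further list, its highest per kb (2 per role in the wider list), and the 10 genes most like the median of the 36; others are marked as named after their values were seen, with Muc5b, Scgb3a1, Pih1d3, Krt5, Catsper1 and Tnp1 among these. Alternatives were DESeq2 1.42.0, limma-voom (limma 3.58.1), other scalings, filters and thresholds, a replicate block and each lung left out. No library pair agreed within sampling noise.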

Additional observations from a re-analysis of the deposited data

How the results depend on the processing

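The count of 0 called motile cilia genes, in either direction, and of 0 called genes of the wider list held under all alternatives run. Directions of all 36 genes held under DESeq2, limma-voom, the other scalings and filters and the replicate block (288 values, 0 reversed). With a lung left out, 44 of 216 values changed sign, in 19 genes, and none of these was called; their ranges on the log2 scale were Foxj1 (-0.13 to 0.12), Rfx2 (-0.069 to 0.15), Rfx3 (-0.13 to 0.087), Dnah5 (-0.12 to 0.33), Dnah6 (-0.15 to 0.23), Dnah12 (-0.10 to 0.25), Ccdc39 (-0.30 to 0.0073), Ccdc40 (-0.033 to 0.34), Drc1 (-0.20 to 0.16), Rsph9 (-0.11 to 0.19), Spag6l (-0.0074 to 0.44), Spag16 (-0.18 to 0.36), Spag17 (-0.0077 to 0.26), Cfap54 (-0.066 to 0.17), Tekt1 (-0.094 to 0.46), Tekt2 (-0.12 to 0.23), Tekt4 (-0.12 to 0.30), Cfap44 (-0.12 to 0.18) and Tppp3 (-0.077 to 0.16). No filter beyond 1 count in total left 4 of the 36 with an unadjusted p below 0.05, and the lowest adjusted p by edgeR was then 0.0641 (Dnah1). The prior degrees of freedom, the weight on a spread estimated from all genes, were infinite in that fit, against 7.66 in the main fit. A gene's own spread between lungs thus had no weight there, so its p-values are not comparable with those of the main fit.

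Counts over all genes moved more. Against 111 higher and 189 lower, DESeq2 called 198 and 333, no filter beyond 1 count in total 455 and 654, an adjusted p of 0.1 207 and 341, and an adjusted p of 0.01 15 and 25. Leaving out single lungs, the counts ran from 23 (without WT lung 1) to 261 (without WT lung 3) higher and from 40 (without R/R lung 2) to 360 (without WT lung 3) lower. Among marker lists, with no filter beyond 1 count in total the called genes went from 1 to 7 of 12 for club cells, 0 to 5 of 10 for alveolar type 2, 1 to 2 of 10 for alveolar type 1, 1 to 6 of 7 for mesothelium, 1 to 3 of 8 for smooth muscle and 0 of 3 to 3 of 8 for goblet cells; with the replicate block they were 2 for club cells, 3 for mesothelium and 2 for goblet cells, and by DESeq2 2 each for club, alveolar type 1 and 2, mesothelial and smooth muscle genes. The calls with no filter beyond 1 count in total come from the fit in which a gene's own spread had no weight. They are not comparable with the calls of the main fit. Causes of the other changes were not tested. Over all tested genes, deviations of same-numbered lungs correlated at -0.014, -0.0036 and -0.015. No R/R lung correlated best with the WT lung of its own number. With 3 lungs a genotype this cannot exclude a pairing. The median deviation of the 36 genes was low in both lungs 1 (-0.22 in R/R, -0.25 in WT) and high in both lungs 3 (0.23, 0.24). In lungs 2 it differed (0.19, -0.18). With the replicate block 168 genes were called higher and 278 lower. Of the 36 genes 0 were then called and 3 had an unadjusted p below 0.05, among them Dnah1, at 0.0084 against 0.108 without the block (edgeR). Depth was no limit to detection of the 36 genes, with at least 45 counts each in every lung, and with 3 lungs a genotype the 95% interval of 12 of them still held a change of 1.5-fold.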

Other observations

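After the values were seen, each motile cilia gene was also set against the median of the other 35 in the same lung, which takes out the shared rise and fall. On this scale, log2 CPM less that median, 3 of the 36 genes (8.33%) no longer overlapped between the genotypes. Of all 17120 tested genes scaled by the median of the 36, 5.13% did not overlap, against 18.7% before scaling. The scaling adds the lung pattern of the 36 to genes that do not share it, so 5.13% is not a like background. With 3 lungs against 3, full separation in either direction has a probability of 0.1 for a gene without a difference, and 8.33% is not above that. The 3 genes are given as a description only. Sntn was higher in R/R, at 2.11 ± 0.0646 against 1.71 ± 0.18 (SD, n = 3). Foxj1 was lower, at 5.63 ± 0.0637 against 5.81 ± 0.0287, and Cfap54, a central pair gene, was lower at 3.41 ± 0.0533 against 3.53 ± 0.0644. No test was run on this scale.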
